A study of Homo sapiens with 8 samples.

Results

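The FOS and JUN proteins and their partners form the transcription factor AP-1, and the RNA of 10 of these genes was followed in pancreatic cancer cells given pachymic acid (PA), a triterpenoid of the fungus Poria cocos. The genes were FOS, FOSB, FOSL1, FOSL2, JUN, JUNB, JUND, BATF3, JDP2 and MAFF, and every probe set annotated to one of them alone was used. That gave 29 of the 49395 probe sets on the array, and all 29 were tested among 38748 that passed a filter on low signals. The cells were MIA PaCa-2, a single established line from a human pancreatic carcinoma, whose maintenance medium contained serum. There were 4 samples of cells given 30 μM PA for 24 h and 4 of cells given DMSO, the solvent of PA, with 0 μM PA for 24 h. The design text calls the control cells untreated, whereas the label of each of these samples names DMSO, and they are called control here. Treatment was in quadruplicate, and nothing states that the 4 samples came from separate cultures, so every p-value below speaks only for the scatter among these 8 samples, some of which may be technical.

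AP-1 proteins carry a basic region that grips DNA and a leucine zipper through which a pair of them is held together. JUN proteins pair with each other or with FOS proteins, whereas FOS proteins do not form stable pairs of their own, and the pair recognises a short, nearly symmetric site in the control regions of its target genes. FOS and JUN are immediate early genes: growth factors, cytokines and stress switch them on within minutes through MAP kinases that act on factors already bound to their promoters. In carcinoma cells FOSL1 in particular is known for a link to RAS signalling and invasion.

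The calls within the family were uneven, which by itself does not establish that the genes changed by different amounts. In PA treated cells FOS, FOSL1, JUN and JUND were raised at every probe set, MAFF was raised at 1 of its 2, and no probe set of FOSB, FOSL2, JUNB, BATF3 or JDP2 passed the test in either direction. FOS and FOSL1 changed most, to 1.74 times the control signal at their most changed probe sets. At an adjusted p under 0.05 (limma, Benjamini-Hochberg over all tested probe sets) 16 of the 29 were raised and 0 lowered, against 8% of all tested probe sets raised and 9.07% lowered. The change reached 1.5-fold at 6 of the 16, against 0.475% of all tested probe sets, and at 3 without PA 1, without control 1 or with array weights. It was 5 with folds of unlogged means and 4 with centring on array medians. With a background signal as covariate, described after the members, 5 of the 16 were raised, in a fit that called 0.952% of all tested probe sets raised and 0.612% lowered. The lowest PA array lay above the highest control array at 17 of the 29 probe sets, against 11.1% of all tested, and the groups were apart in the other direction at 0. The median change of the 29 was 0.38 on the log2 scale beside 0.02 for all tested probe sets, and 96.6% of the 29 had a positive change beside 54.4% of all. Probe sets of 1 gene read the same RNA and were not counted as replicates of it. When each gene was read at its brightest probe set, 5 of 10 genes were raised and 0 lowered, against 9.69% and 11.9% of 15226 genes. The 5 became 4 with centring on array medians and without any 1 of the PA arrays, control 1 or control 4. They became 6 with an intensity trend and without control 3. With the covariate 2 of the 10 were raised, against 1.56% of genes raised and 1.52% lowered in that fit.

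The start regions of these genes bear on what they share. FOS and JUN are themselves switched on in part through short sites just before their first base. RefSeq promoter windows (GRCh38.p14, 250 bases before to 50 bases after the start) matched 8 of the 10 genes in 11 windows of 300 bases, with FOSL1 and BATF3 not among those matched. Both strands were searched for the AP-1 site TGANTCA, the CRE-like site TGACNTCA bound by CREB and by ATF and JUN pairs, its core TGACG, which overlaps the CRE-like site where N is G, and the CArG box of serum response factor. The 6 stretches below run from 150 bases before the start to base 30 of the transcript and show genes raised at every probe set (FOS, JUN, JUND) and genes with no call (FOSB, FOSL2, JUNB), 5′ to 3′ along the gene's strand, with the matches in capitals.
FOS, raised, chr14:75278678-75278857, plus strand: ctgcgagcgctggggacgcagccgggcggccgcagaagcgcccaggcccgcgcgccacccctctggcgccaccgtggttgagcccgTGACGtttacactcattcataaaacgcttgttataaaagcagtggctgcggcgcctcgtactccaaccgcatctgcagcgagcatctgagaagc
JUN, raised, chr1:58784018-58784197, minus strand: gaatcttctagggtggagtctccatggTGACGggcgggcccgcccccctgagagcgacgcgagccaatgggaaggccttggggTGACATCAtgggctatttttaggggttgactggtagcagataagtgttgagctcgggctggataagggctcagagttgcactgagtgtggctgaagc
JUND, raised, chr19:18281593-18281772, minus strand: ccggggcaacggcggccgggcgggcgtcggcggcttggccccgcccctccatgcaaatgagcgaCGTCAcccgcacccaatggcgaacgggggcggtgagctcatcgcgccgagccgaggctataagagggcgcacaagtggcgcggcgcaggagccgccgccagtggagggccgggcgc
FOSB, no call, chr19:45467846-45468025, plus strand: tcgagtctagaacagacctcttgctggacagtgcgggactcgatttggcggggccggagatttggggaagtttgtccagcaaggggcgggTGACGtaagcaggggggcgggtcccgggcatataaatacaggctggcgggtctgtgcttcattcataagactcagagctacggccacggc
FOSL2, no call, chr2:28392708-28392887, plus strand: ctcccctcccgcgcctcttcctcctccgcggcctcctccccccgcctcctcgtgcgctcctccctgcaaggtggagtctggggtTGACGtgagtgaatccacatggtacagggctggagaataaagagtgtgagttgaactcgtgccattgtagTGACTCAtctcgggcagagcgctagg
JUNB, no call, chr19:12791336-12791515, plus strand: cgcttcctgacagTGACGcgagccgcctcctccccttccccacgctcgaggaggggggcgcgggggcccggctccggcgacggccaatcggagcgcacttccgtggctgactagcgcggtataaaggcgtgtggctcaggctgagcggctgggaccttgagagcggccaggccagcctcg

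FOS had TGACG at 64 to 60 bases before the start, FOSB at 60 to 56 and FOSL2 at 66 to 62, while JUNB had it at 137 to 133, so FOS, which was raised, and FOSB and FOSL2, without a call, had the same letters at nearly the same place. A TGACG that begins 70 to 50 bases before the start on the gene's strand was held by 2.01% of all 34943 windows, a range that was set after these matches had been seen. JUN had the CRE-like TGACATCA at 67 to 60 bases before its start and TGACG further up, and MAFF had a full TGACGTCA at 54 to 47 in 1 of its 2 windows. JDP2, without a call, had TGACG at 97 to 93 in 1 of its 3 windows, which are not shown. JUND had TGACG on the opposite strand, read as CGTCA in its stretch, and a full TGACGTCA at 200 to 193 bases before the start, outside the stretch shown. The only match to the AP-1 site among these windows was TGACTCA at bases 5 to 11 of FOSL2. No window of the 8 genes held a CArG box. Bases further from the start were not searched, so a CArG box there, in FOS or another gene, would have been missed. The shares of all windows with a match were 7.72% for TGANTCA, 7.71% for TGACNTCA, 24.5% for TGACG and 1.30% for the CArG box. These are matches of letters only, and binding was not measured here.

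Each array gave a log2 RMA signal per probe set, and differences in signal between probe sets were not read as differences in the amount of RNA. The median over all probe sets was 5.74 to 5.77 in PA arrays and 5.71 to 5.74 in control arrays. Of 7 epithelial markers KRT8, KRT18 and KRT19 were bright, with KRT18 at 13.57 ± 0.030 in PA and 13.39 ± 0.045 in control arrays (SD, n = 4 each), while KRT7, CDH1 and EPCAM were near the filter's limit of 4, and KRT18 and KRT8 were raised (limma adjusted p = 0.0146 and 0.0309). Of the leukocyte markers 5 of 8 and of the fibroblast and endothelial markers 8 of 10 were measured, with 0 raised and 1 lowered in each (CD14 and COL1A2). PTPRC, MS4A1, DCN and LUM lay below the limit, but other markers of these lists had clear signals, with means in PA and control arrays of 9.88 and 10.41 for COL1A2, 8.55 and 8.44 for CD68, 7.93 and 7.54 for CDH5, 7.23 and 7.27 for COL3A1 and 6.83 and 7.35 for CD14. A mean over the cells of a culture does not tell fewer cells with a message from less of it per cell. Both kinds of control probe set looked at here were higher on average in PA arrays. The 18 probe sets of spiked hybridization controls averaged 11.02 ± 0.043 in PA and 10.94 ± 0.022 in control arrays without overlap (SD, n = 4 each, exact two-sided permutation test, p = 0.0286), and their part in the changes was not tested. The 8 control probe sets for background, with 18 or more G or C of 25 bases, averaged 7.03 ± 0.082 in PA and 6.77 ± 0.155 in control arrays (SD, n = 4 each, exact two-sided permutation test, p = 0.0571). The changes with this background signal as a covariate are given after the members.

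FOS (chr14:75278828-75282230), the founding member whose message is made in a burst and then lost within the hour, was raised at 4 of 4 probe sets. At 11734659_a_at, its brightest, the signals were 7.41, 7.26, 7.35 and 7.30 in PA arrays, against 6.53, 6.88, 6.58 and 6.58 in control arrays. The groups did not overlap, and control 2 stood above the other control arrays. The change was 0.69 ± 0.080 on the log2 scale (SE), or 1.61-fold, with an adjusted p of 0.00114 by limma.

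A second FOS probe set, 11749291_a_at, read 6.99, 6.80, 6.77 and 6.90 in PA arrays, against 6.01, 6.18, 6.12 and 5.95 in control arrays. Here the groups again did not overlap, control 2 was close to control 3, and the change was 0.80 ± 0.070 (SE, limma adjusted p = 4.04e-04). The remaining pair changed less, by 0.51 at 11749852_s_at and by 0.43 ± 0.122 at 11734658_s_at (SE, limma adjusted p = 0.0415). The last of these is the weakest call of FOS, and without PA 1, PA 2, control 1, control 2 or control 4 its adjusted p was 0.0647 to 0.102.

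FOSL1 (chr11:65892049-65900545), which encodes FRA1, lacks the strong activation domain of FOS and makes a longer-lived protein. All 6 of its probe sets were raised, by 0.49 to 0.80, and at all 6 the groups did not overlap. At 11724478_s_at the signals were 8.33, 8.19, 8.12 and 8.03 in PA arrays, against 7.27, 7.41, 7.33 and 7.48 in control arrays, a change of 0.80 ± 0.074 (SE, limma adjusted p = 4.98e-04). The lowest PA array, at 8.03, stood clear of the highest control array, at 7.48. At the brightest, 11760574_x_at, the signals were 8.62, 8.37, 8.39 and 8.19 in PA arrays, against 7.56, 7.56, 7.88 and 8.01 in control arrays. The spread was wider there, control 3 and control 4 being nearest to the PA arrays, and the change was 0.64 ± 0.122 (SE, limma adjusted p = 0.00881). The suffix _x_at marks probes that can also bind other transcripts, and the FOSL1 probe sets with the suffix _a_at were raised as well.

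FOSB and FOSL2 are the members of the FOS branch without a call. FOSB (chr19:45467996-45475179), the second immediate early FOS gene, was read at 11717344_x_at and gave 6.44, 6.50, 6.34 and 6.45 in PA arrays, against 6.60, 6.46, 6.35 and 6.43 in control arrays. The groups overlapped, and the 95% interval of the change ran from -0.17 to 0.12 on the log2 scale. At its other probe set, 11717345_a_at, the PA arrays spread from 4.67 to 5.18 and the control arrays from 4.67 to 4.94. There the 95% interval was wider, from -0.12 to 0.38, so a difference of the FOSB message was not detected within these bounds.

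FOSL2 (chr2:28392858-28417317), which encodes FRA2, had 5 probe sets with changes of 0.06 to 0.27, all positive and none called. Its brightest, 11763171_at, read 8.08, 7.95, 7.94 and 8.01 in PA arrays, against 7.89, 8.10, 7.91 and 7.83 in control arrays. These groups overlapped almost fully, and the 95% interval was -0.09 to 0.21. The nearest to a call was 11731600_a_at, with signals of 4.78 to 4.98 in PA arrays and 4.50 to 4.85 in control arrays (limma adjusted p = 0.0523). Without control 3, the highest of the control arrays there, that probe set was raised (limma adjusted p = 0.0111), as it was with array weights (0.0394) and with Storey-Tibshirani q-values (0.0483).

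The 4 FOS genes were compared with one another in how much they changed, at the brightest probe set of each, together with the 3 JUN genes, in 9 pairs picked after the values had been seen. The change of FOS exceeded that of FOSB by 0.72 and that of FOSL2 by 0.63, and the change of FOSB fell short of that of FOSL1 by 0.67, each with an exact two-sided permutation p of 0.0286, the smallest that 4 against 4 arrays allow. Adjusted over the 9 pairs these p-values were 0.0858. The change of FOSL1 was 0.58 above that of FOSL2 (exact permutation p = 0.0571, adjusted 0.128), and the other 5 pairs had exact permutation p-values of 0.314 to 0.914. None of the 9 differences passed the adjustment. With so few arrays, a small number of pairs at the smallest possible p could not pass it, so equal change is not shown.

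**Figure D1:**
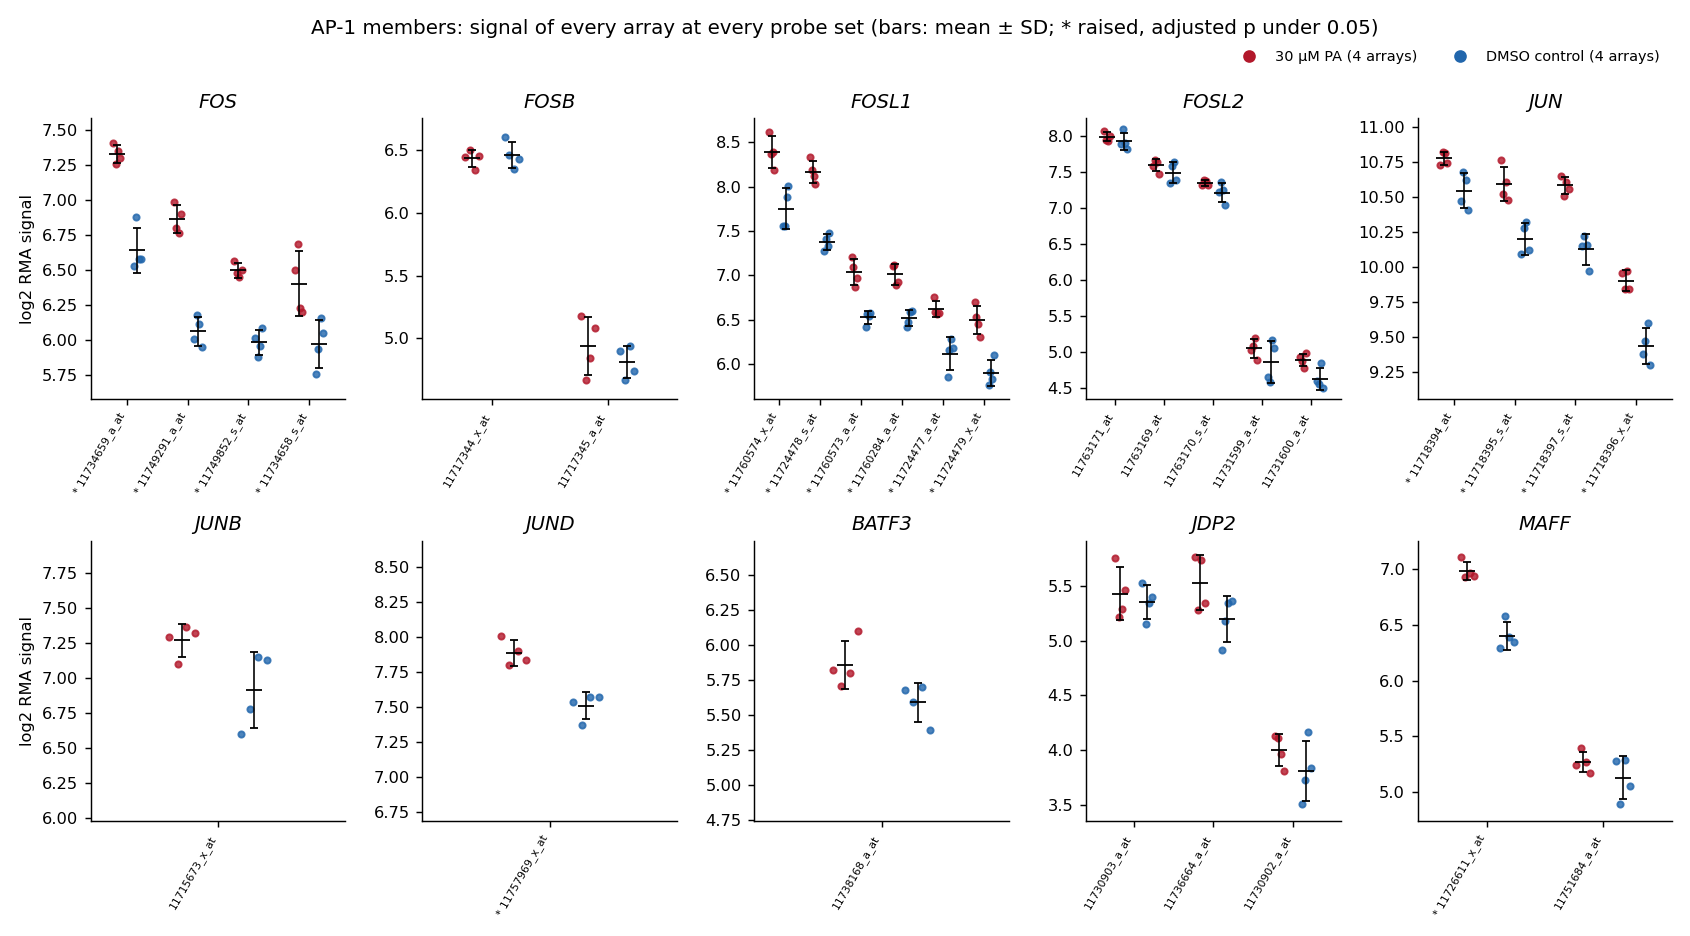
Signals of all 29 probe sets of the 10 AP-1 genes, 1 panel per gene, with the log2 RMA signal on the vertical axis and the probe sets on the horizontal axis. Each point is 1 array, PA on the left in red and control on the right in blue, bars show the mean ± SD of 4 arrays, and an asterisk marks a raised probe set. The colours separate fully in FOS, FOSL1, JUN and JUND and overlap in FOSB and at every FOSL2 probe set.

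JUN (chr1:58780791-58784047), a main partner of the FOS proteins, was read by probe sets whose signals were above 9 on every array. It was raised at 4 of 4, by 0.23 to 0.47, and at each of them the groups did not overlap. At 11718397_s_at the signals were 10.65, 10.51, 10.61 and 10.56 in PA arrays, against 10.15, 10.22, 10.16 and 9.97 in control arrays. The groups did not overlap, and the change was 0.46 ± 0.064 (SE, limma adjusted p = 0.00234), or 1.37-fold.

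The brightest JUN probe set, 11718394_at, read 10.73, 10.82, 10.81 and 10.74 in PA arrays, against 10.47, 10.68, 10.62 and 10.41 in control arrays. PA arrays were still the higher ones, but narrowly, since the lowest of them read 10.73 and the highest control array 10.68. Its change of 0.23 ± 0.067 (SE) had an adjusted p of 0.0442 by limma, and without any 1 of the PA arrays, control 1 or control 4 the adjusted p was 0.0655 to 0.107. The call was also lost with centring on array medians (limma adjusted p = 0.0742) and with no filter on low signals (limma adjusted p = 0.0587). The other 3 JUN probe sets had adjusted p-values of 0.00234 to 0.0110 by limma. Among them 11718396_x_at carries the suffix of probes that can also bind other transcripts. The brightest, with the smallest JUN change, is the only one with the plain suffix _at.

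JUND (chr19:18279694-18281622), the member that many resting cells already express, was read by a single probe set, 11757969_x_at. The signals were 8.01, 7.80, 7.90 and 7.84 in PA arrays, against 7.54, 7.37, 7.57 and 7.57 in control arrays. The groups did not overlap, and the change of 0.38 ± 0.066 (SE) had an adjusted p of 0.00641 by limma. The probes of this set can also bind other transcripts, and no second probe set was there to compare.

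JUNB (chr19:12791486-12793315), which can oppose JUN at some target genes, also had a single probe set of that kind, 11715673_x_at. It read 7.29, 7.10, 7.36 and 7.32 in PA arrays, against 6.60, 6.78, 7.15 and 7.13 in control arrays. Control 3 and control 4 lay above the lowest PA array while control 1 and control 2 lay well below all of them. The difference in means, 0.35 ± 0.124 (SE), was close in size to that of JUND, but its adjusted p by limma was 0.0821, and the changes of JUNB and JUND differed by -0.02 (exact permutation p = 0.914).

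**Figure D2:**
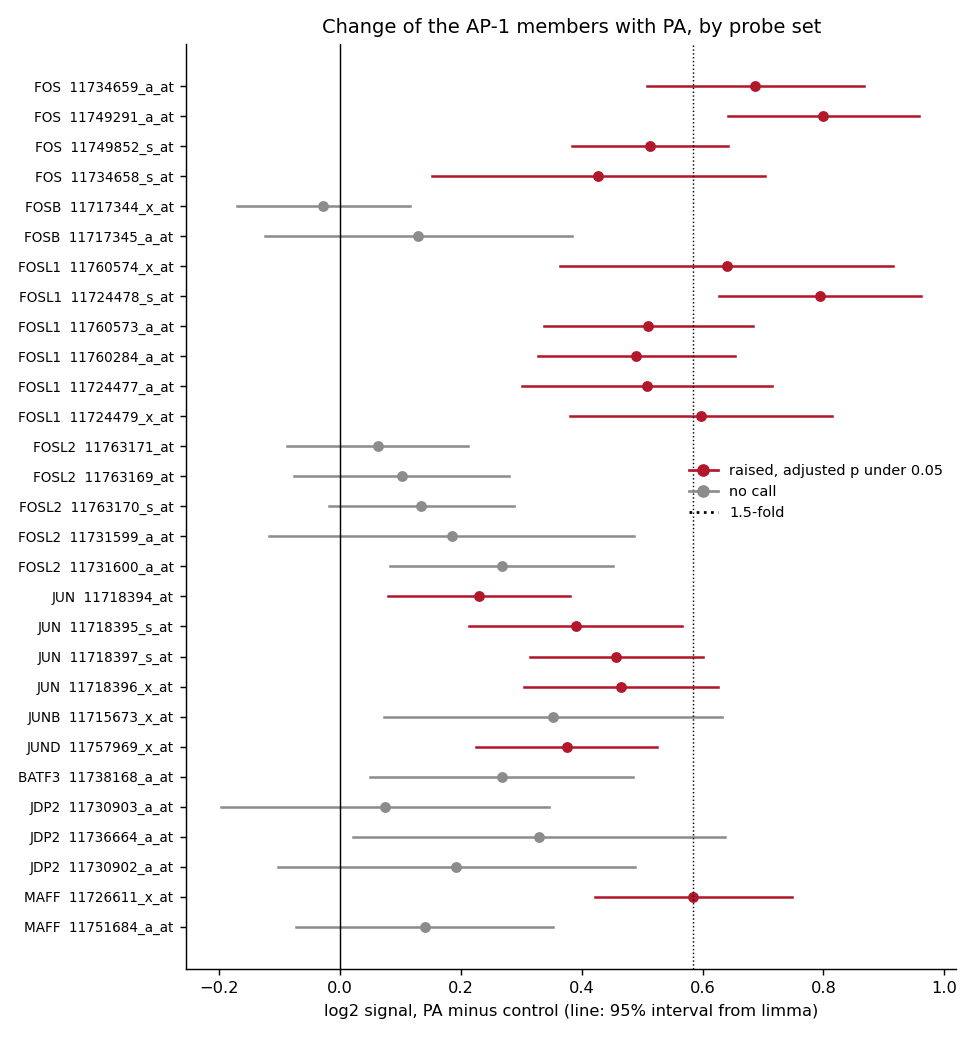
Change of every AP-1 probe set, as log2 signal in PA minus control, with its 95% interval from limma and 1 row per probe set. Raised probe sets are red, those without a call grey, and the dotted line marks 1.5-fold, which 2 probe sets of FOS, 3 of FOSL1 and 1 of MAFF reached.

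Among the partners, MAFF (chr22:38201994-38216511) encodes a small MAF protein that has the zipper but no activation domain. At 11726611_x_at the signals were 7.11, 6.93, 6.97 and 6.94 in PA arrays, against 6.29, 6.58, 6.39 and 6.35 in control arrays. The groups did not overlap, and the change was 0.59 ± 0.072 (SE, limma adjusted p = 0.00147), or 1.5-fold. At its dimmer probe set, 11751684_a_at, the change was 0.14 with overlapping groups and no call, so the probe sets of MAFF disagreed. The raised one carries the suffix _x_at, so its probes can also bind other transcripts, and the MAFF call rests on it alone.

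BATF3 (chr1:212686417-212699840), which has little beyond the basic region and the zipper and pairs with JUN proteins, was read at 11738168_a_at and gave 5.82, 5.71, 5.80 and 6.10 in PA arrays, against 5.68, 5.59, 5.70 and 5.39 in control arrays. The groups touched without overlapping, at 5.71 and 5.70, and the change of 0.27 ± 0.097 (SE) was not called (limma adjusted p = 0.0888). JDP2 (chr14:75426943-75474107), a repressor that pairs with JUN proteins, had 3 probe sets with changes of 0.08 to 0.33 and overlapping groups at each. One of the 3, 11730902_a_at, passed the filter on low signals only through the mean of its PA arrays, 4.01 beside 3.81 in control arrays.

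Taking the mean over all probe sets of a gene in place of the brightest gave the same 5 genes, with changes of 0.61 for FOS, 0.59 for FOSL1, 0.39 for JUN, 0.38 for JUND and 0.36 for MAFF. FOSL2 averaged 0.15 over its 5 probe sets (limma adjusted p = 0.0794) and FOSB 0.05.

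The GC-rich background signal described above was then entered as a covariate in the same limma fit. With it 5 of the 16 raised probe sets were still raised, 3 of FOS, 1 of FOSL1 (11724478_s_at) and 1 of MAFF (11726611_x_at), and no probe set of JUN or JUND. The same fit called 369 of all 38748 probe sets raised and 237 lowered, against 3098 and 3516 without the covariate. FOS at 11734659_a_at then changed by 0.81 ± 0.117 (SE, limma adjusted p = 0.0266), FOSL1 at 11724478_s_at by 0.75 ± 0.119 (SE, limma adjusted p = 0.0336) and MAFF at 11726611_x_at by 0.63 ± 0.115 (SE, limma adjusted p = 0.0445). The JUN probe set 11718397_s_at changed by 0.51 ± 0.0989 (SE, limma adjusted p = 0.0512), and JUND by 0.24 ± 0.0882 (SE, limma adjusted p = 0.195). The other calls lost included FOSL1 at 11760574_x_at, its brightest, with a change of 0.35 (limma adjusted p = 0.282), FOSL1 at 11724477_a_at with 0.34 (0.220) and FOS at 11734658_s_at with 0.20 (0.606), which, with JUND, were the changes that shrank by over 1.5 times. All 16 stayed positive. Standard errors were 1.49 times as large at the median of the 29 and of all tested probe sets alike, since the covariate and the treatment partly move together on 8 arrays, and their shares in a change cannot be fully told apart.

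**Figure D3:**
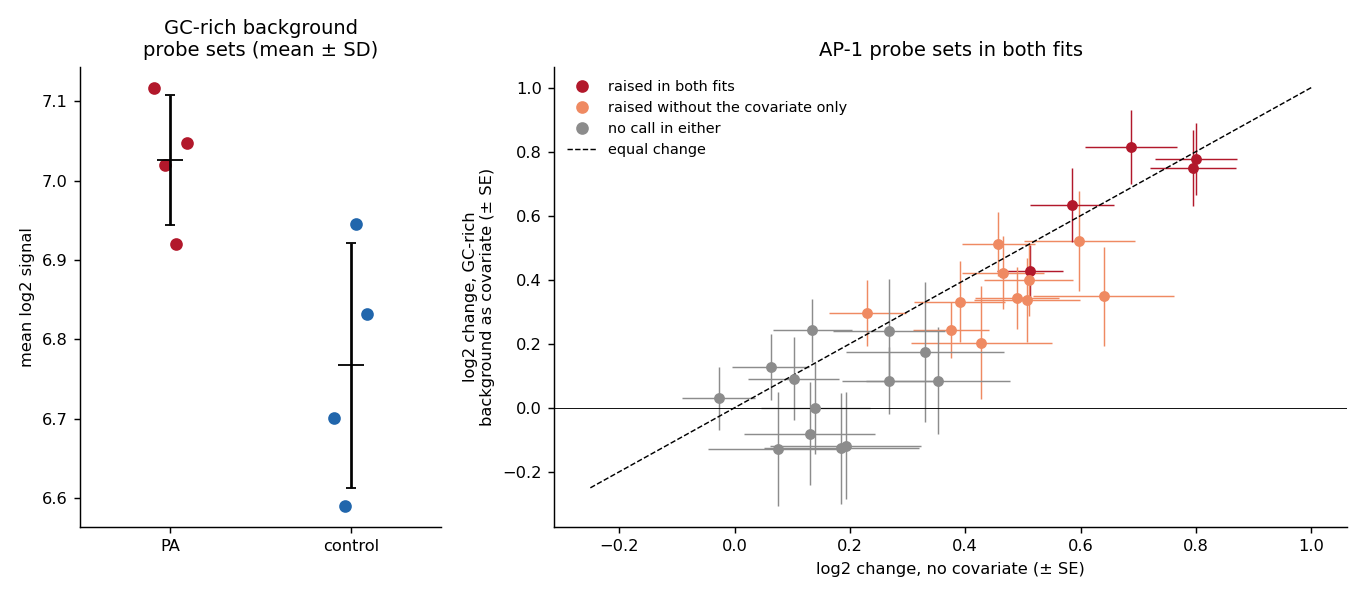
Left, mean log2 signal of the 8 GC-rich background probe sets on each array, PA left of control, with mean ± SD of 4 arrays. Right, change of each of the 29 AP-1 probe sets with this mean as covariate (vertical, log2) against the change without it (horizontal, log2), with standard errors, where the 5 probe sets raised in both fits are red and the 11 raised only without the covariate are orange.

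The gene whose pattern over the arrays was compared with all others was FOS, the member with the smallest adjusted p. The 5 genes most like it by Pearson correlation over the 8 arrays were PDCD2L (0.996), STK17A (0.993), UHRF2 (0.990), EPHA2 (0.990) and HKDC1 (0.982), each raised, by 0.16 to 0.68. The 8 arrays fall into 2 groups, so these values mostly restate that difference and are given as a description. EPHA2, a receptor tyrosine kinase found in many carcinomas, read 8.92 ± 0.024 in PA and 8.67 ± 0.061 in control arrays (SD, n = 4 each).

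Genes around AP-1 were read at their brightest probe sets in 4 lists, chosen with earlier results of these data known, against a background of 9.69% of genes raised and 11.9% lowered and a median change of 0.02. Of 14 measured other zipper proteins that pair or compete with AP-1, 4 were raised and 1 lowered, with a median of 0.06, and with the covariate 2 were raised and 0 lowered. ATF3, a stress-induced factor that pairs with JUN proteins, read 7.61, 7.44, 7.55 and 7.64 in PA arrays, against 5.80, 5.74, 5.87 and 5.94 in control arrays. Its groups lay far apart, with a change of 1.72 ± 0.062 (SE, limma adjusted p = 5.35e-06), and whether that exceeds the changes of the AP-1 members was not tested. The oxidative stress factor NFE2L2 was raised by 0.18, NFE2L3 by 0.44 and the small MAF gene MAFG by 0.39, while ATF2, which pairs with JUN at CRE-like sites, was lowered by 0.44.

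Upstream, 30 kinases and promoter-bound factors were measured, of which 4 were raised and 7 lowered, with a median of -0.03. With the covariate 1 was raised and 1 lowered, and with the replicate number as a block 2 were raised. MAP2K3, a kinase that activates p38, was raised by 0.52 ± 0.051 (SE, limma adjusted p = 4.66e-04), reading 8.42 ± 0.074 in PA and 7.90 ± 0.053 in control arrays (SD, n = 4 each). ELK4, a partner of serum response factor, was raised by 0.36, MAP3K7 by 0.20 and MAP3K5 by 0.30. The ELK4 signals were low, with means of 4.9 in PA and 4.5 in control arrays. MAPK3, which encodes the kinase ERK1, was lowered by 0.31, MEF2A by 0.30 and RPS6KA5 by 0.33, whereas the JNK genes MAPK8 and MAPK9 changed by 0.04 and -0.03 with no call. These are messages of kinases, and their activity was not measured by the arrays.

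Of 10 measured genes whose products modify or destroy AP-1 proteins, 0 were raised and 2 lowered, with a median of -0.12. The lowered count was 0 with the covariate, 4 with centring on array medians, and 5 with an intensity trend or with Storey-Tibshirani q-values. The lowered genes were USP28, a deubiquitinase that stabilises JUN, by 0.26 and the deacetylase HDAC3 by 0.25. COPS5, SIRT1 and DET1 changed by -0.15, -0.14 and -0.21 with groups that did not overlap and no call. All PA arrays lay below all control arrays at 5 of the 10 genes, against 2204 of all 15226 genes. FBXW7, which directs JUN to degradation, changed by 0.19 with overlapping groups and no call.

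Of 24 measured genes known as AP-1 targets, 9 were raised and 1 lowered, with a median of 0.18. CXCL8, the neutrophil chemokine interleukin-8, was raised by 1.26 ± 0.048 (SE, limma adjusted p = 5.35e-06) to 12.70 ± 0.040 in PA arrays, against 11.43 ± 0.069 in control arrays (SD, n = 4 each). HBEGF, an EGF receptor ligand, was raised by 1.34, IL1B by 0.93, DUSP1, a phosphatase that turns MAP kinases off, by 0.78, and LIF by 0.64. The urokinase gene PLAU was raised by 0.39 and its receptor gene PLAUR by 0.47, so both sides of that protease system were among the 9, and the others were CCND1 and MMP1. MMP1, a collagenase and textbook AP-1 target, was raised by 0.44 but with overlapping groups, while MMP9, MMP13, IL6 and VEGFA had no call. Means in PA and control arrays were 4.7 and 4.4 for MMP9, 4.9 and 4.9 for MMP13 and 5.1 and 4.9 for IL6. These lay below the array medians of 5.71 to 5.77, whereas VEGFA read 10.0 in both groups. SPP1 was the lowered gene, by 0.26, a call lost with the covariate, with the replicate number as a block and without any 1 of the PA arrays or control 4. Its signals were low as well, with means of 4.3 in PA and 4.6 in control arrays. Many of these targets also answer to other factors, and which factor acted on them was not tested.

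**Figure D4:**
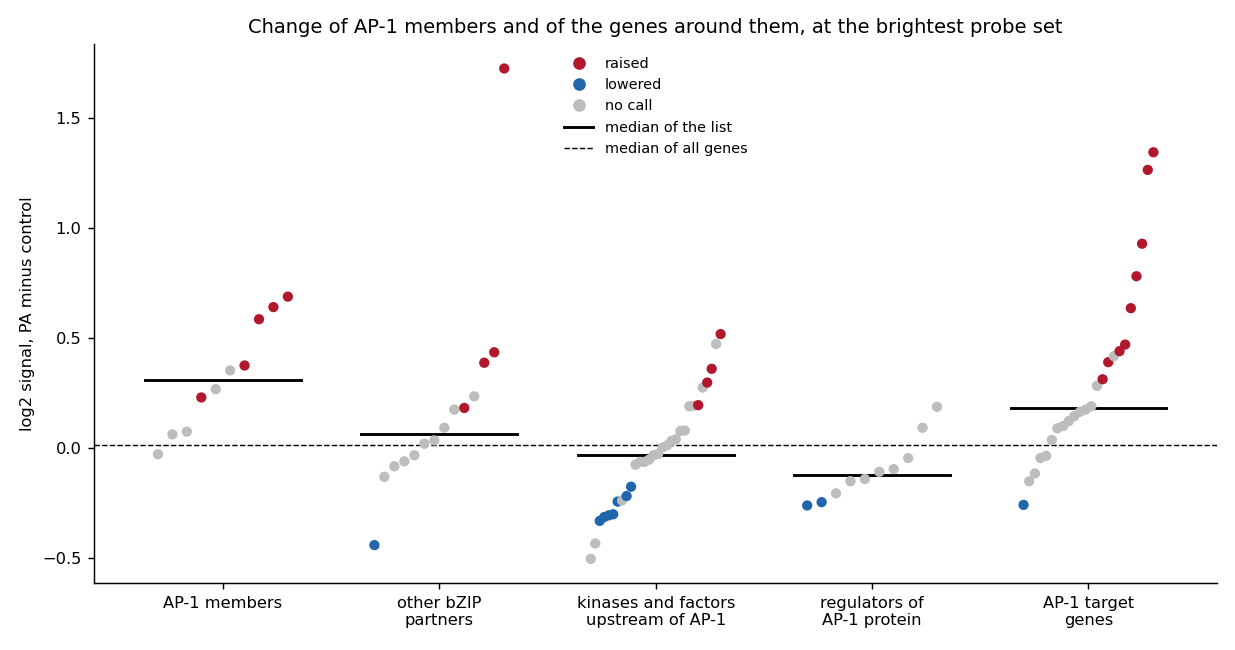
Change of each measured gene at its brightest probe set, as log2 signal in PA minus control, for the 10 AP-1 genes and the 4 lists around them. Each point is 1 gene, red if raised, blue if lowered and grey if not called, and the solid line is the median of the list beside the dashed median of all 15226 genes. ATF3 at 1.72 stands above the other points.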

How the data were processed

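RNA of 4 PA treated and 4 control samples of MIA PaCa-2 cells was hybridised to Human PrimeView arrays of Affymetrix, and the authors deposited the log2 signals. The authors labelled total RNA with a 3′ IVT kit and made the log2 signals in Partek by RMA, that is background correction, quantiles made equal over arrays, and probe sets summarised by median polish. The submitters' processing notes name GCOS, Partek and RMA, with versions not given in the sources used here. Nothing states whether arrays of another cell line took part in that normalization. The signals carry 2 decimals. The number of arrays limits the precision.

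Gene symbols were those of the platform annotation, of which 44994 probe sets have a single symbol, 1832 several and 2473 none, and 102 are controls. Probe sets with a higher group mean of at least 4 were tested, which kept 38748, and each of 15226 genes was read at its brightest single-symbol probe set. The difference between PA and control was estimated with limma 3.58.1 (lmFit, eBayes) under R 4.3.3, with Benjamini-Hochberg adjustment over all probe sets or all genes and calls at an adjusted p under 0.05. This fit was tested on data with known changes. Permutation tests were exact and two-sided over the arrays. Promoter windows came from RefSeq (GRCh38.p14), and plots were made in matplotlib 3.10.9 (Python 3.11.15).

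The members and gene lists were chosen with earlier results of these data known. Named are all members, up to 5 genes per pathway list with the smallest adjusted p and any called gene there where a count is 5 or fewer, and the 5 genes most like the member of smallest adjusted p. MAPK8, MAPK9, FBXW7, CCND1, MMP1, MMP9, MMP13, IL6, VEGFA, PLAU, PLAUR, the cell type markers and the promoter match of MAFF fall outside that rule and were named after their values had been seen. Promoters were printed for members raised at every probe set and, for contrast, for 3 of the members without a call, leaving out the windows of JDP2. Alternatives were other filters, quantile normalization over these arrays, centring, an intensity trend, array weights, a replicate block, the GC-rich covariate, ANOVA with q-values, an unadjusted p under 1e-05, folds of unlogged means, means over probe sets and leaving out each array.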

Additional observations from a re-analysis of the deposited data

Results flagged for a closer look

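In 58 groups of 4 arrays, 3 had 1 array set apart from its group by more than the 95% limit for such a gap, where chance gives about 1 in 20 groups. FOS at 11734659_a_at read 6.88 in control 2, against 6.53 to 6.58 in the other control arrays. FOSL1 at 11724477_a_at read 6.76 in PA 1, against 6.57 to 6.59 in the other PA arrays. JUND at 11757969_x_at read 7.37 in control 2, against 7.54 to 7.57 in the other control arrays. Control 2 was thus high for FOS and low for JUND, and it had the lowest GC-rich background signal of the 8 arrays, 6.59. Without any 1 of the 8 arrays the changes of these 3 probe sets stayed positive, at 0.65 to 0.77 for FOS, 0.42 to 0.56 for FOSL1 and 0.33 to 0.40 for JUND.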

How the results depend on the processing

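With the replicate block, 14 AP-1 probe sets were raised in place of 16, the calls of JUN at 11718394_at and FOS at 11734658_s_at being lost (limma adjusted p = 0.0586 and 0.0893), and upstream genes raised became 2 and AP-1 targets lowered 0. Calls over all 38748 probe sets became 1585 raised and 2003 lowered with the block, against 3098 and 3516 without it. Deviations of same-numbered arrays correlated at -0.153 to 0.0527, which cannot settle whether such samples were handled together, and the labels do not say whether the replicate numbers mark pairs. With the GC-rich covariate, calls over all 38748 probe sets became 369 raised and 237 lowered, against 3098 and 3516 without it. Raised became 5 for AP-1 probe sets, 2 for AP-1 genes, 2 for partners and 1 for upstream genes, and lowered became 0 for partners, 1 for upstream genes, 0 for regulators and 0 for targets. It also turned the sign of 6 changes that had no call, to 0.0298 and -0.0807 for FOSB at 11717344_x_at and 11717345_a_at, -0.13 for FOSL2 at 11731599_a_at, -0.13 and -0.12 for JDP2 at 11730903_a_at and 11730902_a_at, and -0.0019 for MAFF at 11751684_a_at. At an unadjusted p under 1e-05, 4 AP-1 probe sets were raised, a count that is not set against all probe sets here. Array weights left 3 at 1.5-fold or more. Regulators lowered became 4 with centring, 5 with an intensity trend and 5 with ANOVA q-values, and targets lowered 0 at a minimum signal of 5 and 2 with ANOVA q-values. The causes were not tested.

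Leaving out each array in turn gave 14 to 18 raised AP-1 probe sets, 3 to 6 at 1.5-fold or more (3 without PA 1 or control 1), 0 to 1 targets lowered (0 without any 1 PA array or control 4), and 0 to 1 regulators raised (1 without control 2). Among all tested probe sets these fits called 1860 to 2974 raised and 2180 to 3581 lowered. FOSB at 11717344_x_at ran from -0.0642 to 0.0192 (positive without PA 3 or control 1) and JDP2 at 11730903_a_at from -0.0325 to 0.148 (negative without PA 1). JUNB was raised with an intensity trend (limma adjusted p = 0.0337) and without control 3 (0.0466). In every setting run 0 AP-1 probe sets were lowered.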
